A study of Rattus norvegicus with 8 samples.

Results

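The GDNF receptor and the genes that lie downstream of it were examined in sorted germ cells of prepubertal rats. The set holds 10 genes: the receptor genes Gfra1, Ret and Ncam1, the transcription factor genes Etv4, Etv5, Bcl6b, Lhx1 and Pou3f1, and the feedback genes Dusp6 and Spry4. They were chosen by name, and all 10 were found by symbol among the 24059 genes of the count table. All 10 also passed the filter on low counts, with which 16976 genes were tested.

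The cells were GFP-positive germ cells from testes of transgenic Sprague-Dawley rats with the GCS-EGFP reporter, a line whose promoter the labels do not name. Doxorubicin rats (numbers 2, 3, 6 and 8) had received 5 mg/kg of the drug, an anthracycline that traps topoisomerase II on DNA, on postnatal day 6. Control rats (numbers 1, 4, 5 and 9) had received vehicle, and in both groups cells were taken 24 h later. Each library is from 1 rat, and polyA RNA was sequenced to between 41253789 and 58870999 estimated counts per library. Total counts, genes detected and the mitochondrial share did not separate the groups (two-sided exact permutation p = 0.686, 0.914 and 0.971, n = 4 each, where the smallest possible p is 0.0286).

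GDNF, glial cell line-derived neurotrophic factor, is made by Sertoli and peritubular cells and sustains the stem cells among spermatogonia. It binds the co-receptor GFRA1, which is held in the membrane by a lipid anchor, and the pair then activates the receptor tyrosine kinase RET. RET signals through SRC family kinases, PI3K and AKT, and RAS and ERK. In rodent spermatogonia GDNF raises Etv5, Bcl6b, Lhx1 and Pou3f1, whereas Dusp6 and Spry4 are general targets of ERK whose products damp the pathway.

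The GDNF ligand itself was near the limit of detection, with 6 to 12 counts per doxorubicin library and 1 to 15 counts per control library. Germ cell markers were abundant: the RNA helicase gene Ddx4 averaged 390.0 ± 5.64 CPM (counts-per-million, scaled by TMM) after doxorubicin and 377.1 ± 23.9 CPM in controls (SD, n = 4 each). The 11 measured Sertoli markers summed to between 81.8 and 97.4 CPM in doxorubicin libraries and between 83.3 and 94.5 CPM in control libraries. The 12 germ cell markers summed to between 2374 and 2473 CPM after doxorubicin and between 2335 and 2457 CPM in controls. Markers of nerve and Schwann cells, which can also carry Ret and Ncam1, summed to between 13.3 and 17.0 CPM after doxorubicin and between 12.6 and 15.4 CPM in controls. Peritubular and stromal markers summed to between 49.8 and 69.5 CPM after doxorubicin and between 55.0 and 70.1 CPM in controls. Of the 9 tested, 2 had a log2 fold change above 0 and 7 below, with a median of -0.26 and 0 called. Pdgfra and Col1a1 were lower after doxorubicin without overlap, 2 of 9 beside 1.95% of all genes. Myh11 averaged 8.75 ± 3.70 CPM after doxorubicin and 5.09 ± 0.934 CPM in controls (unadjusted p = 0.0183, edgeR adjusted p = 0.561). Macrophage and leukocyte markers summed to between 5.14 and 5.67 CPM after doxorubicin and between 4.19 and 5.29 CPM in controls. Of these, 6 of 6 tested had a log2 fold change, doxorubicin over control, above 0, as did 8108 of all 16976 genes tested. Their smallest edgeR adjusted p was 0.815. Endothelial markers summed to between 97.4 and 109.1 CPM after doxorubicin and between 85.3 and 99.3 CPM in controls. Of the 7 tested, 6 had a log2 fold change above 0. Most of this sum was Pecam1, which averaged 76.5 ± 5.88 CPM after doxorubicin and 70.7 ± 5.23 CPM in controls. The next highest, Egfl7, averaged 10.9 and 10.3 CPM. Leydig cell markers summed to between 4.38 and 9.71 CPM after doxorubicin and between 5.87 and 8.32 CPM in controls, and edgeR and DESeq2 called 0 genes of these 3 lists. Of 4 erythroid genes tested, Slc4a1, an anion exchanger of red cells, rose after doxorubicin, at 7.48 ± 2.21 CPM against 3.09 ± 0.347 CPM in controls (edgeR adjusted p = 0.0339), while the globin genes Hbb and Hba-a1 lay between 0.398 and 1.16 and between 0.688 and 1.42 CPM after doxorubicin, and between 1.17 and 1.74 and between 1.65 and 2.66 CPM in controls (adjusted p = 0.192 and 0.206 in edgeR). DESeq2 called all 3, Slc4a1 higher and both globin genes lower, where it called 1.02% of all genes. Adjusted p in DESeq2 was 1.3e-08 for Slc4a1, 0.0284 for Hbb and 0.0439 for Hba-a1. The groups did not overlap for any of these 3 genes, beside 4.72% of all genes. Alas2, the remaining gene, averaged 0.278 ± 0.0699 CPM after doxorubicin and 0.409 ± 0.0785 CPM in controls. Its groups overlapped, and neither edgeR (adjusted p = 0.794) nor DESeq2 (adjusted p = 0.976) called it. Thus 3 of the 4 erythroid genes were lower after doxorubicin and Slc4a1 alone was higher. The part of these cells in the levels below was not tested, and in bulk RNA fewer cells of a type and less RNA per cell cannot be told apart.

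Promoter sequences were at hand for 6 of the 10 genes (Gfra1, Ret, Etv5, Lhx1, Dusp6 and Spry4), from RefSeq on the GRCr8 build. The 250 bases before the start of Etv5 (chr11:92113013-92113262, plus strand), Dusp6 (chr7:35979354-35979603, plus strand) and Spry4 (chr18:30702547-30702796, minus strand) are shown because these 3 genes varied together between rats, as described further on. Capitals mark CCAAT in Etv5, GGAA (the core bound by ETS factors such as ETV4 and ETV5) in Dusp6, and CATTCAT in Spry4, each on either strand, so that a match on the other strand appears as its reverse complement.
Etv5: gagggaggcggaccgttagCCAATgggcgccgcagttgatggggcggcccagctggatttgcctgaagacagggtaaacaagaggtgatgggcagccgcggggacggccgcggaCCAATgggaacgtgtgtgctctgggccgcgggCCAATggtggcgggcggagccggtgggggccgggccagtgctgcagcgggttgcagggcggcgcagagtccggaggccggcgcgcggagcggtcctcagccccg
Dusp6: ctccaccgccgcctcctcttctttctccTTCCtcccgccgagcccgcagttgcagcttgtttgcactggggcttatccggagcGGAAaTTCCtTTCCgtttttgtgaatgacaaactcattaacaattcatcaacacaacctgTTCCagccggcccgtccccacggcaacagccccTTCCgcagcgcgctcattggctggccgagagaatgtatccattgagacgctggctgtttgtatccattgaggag
Spry4: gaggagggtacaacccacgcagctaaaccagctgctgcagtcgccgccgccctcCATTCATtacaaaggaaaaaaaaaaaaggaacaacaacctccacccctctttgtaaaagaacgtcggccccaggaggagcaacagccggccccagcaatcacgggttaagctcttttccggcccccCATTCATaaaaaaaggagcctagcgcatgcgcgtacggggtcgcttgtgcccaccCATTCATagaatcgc
Dusp6 held 6 matches to GGAA, and 9.27% of 33469 rat promoter windows of this length held 6 or more. Spry4 held 3 matches to GGAA and Etv5 held 1, against a median of 3. Etv5 held 3 matches to CCAAT, where 2.52% of the windows held 3 or more, and Spry4 held none. Spry4 held 3 matches to CATTCAT, a motif picked after the sequence was seen, and 0.0478% of the windows held 3 or more. The longer ETS form CCGGAA, whose last 4 letters are the GGAA core, was found once in Spry4 and in 12.6% of all windows, and TGACG, a half-site for cAMP response factors, in none of the 6 and in 18.2% of all. These matches describe the letters of the window and carry no evidence of binding.

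None of the 10 genes passed the test between doxorubicin and control rats. With edgeR's quasi-likelihood test and Benjamini-Hochberg adjustment over all genes, 0 of 10 had an adjusted p below 0.05, where 0.112% of all genes did. DESeq2 also called 0 of 10, against 1.02% of all genes. At an unadjusted p below 0.05 edgeR named 1 of 10, Ncam1, against 6.76% of all genes. The median log2 fold change, doxorubicin over control, was 0.04 for the 10 genes and -0.0047 over all genes, with 7 positive and 3 negative. In 0 of 10 were the groups free of overlap, where 4.72% of all genes had none. The per-library plot gives the level in each rat.

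**Figure D1:**
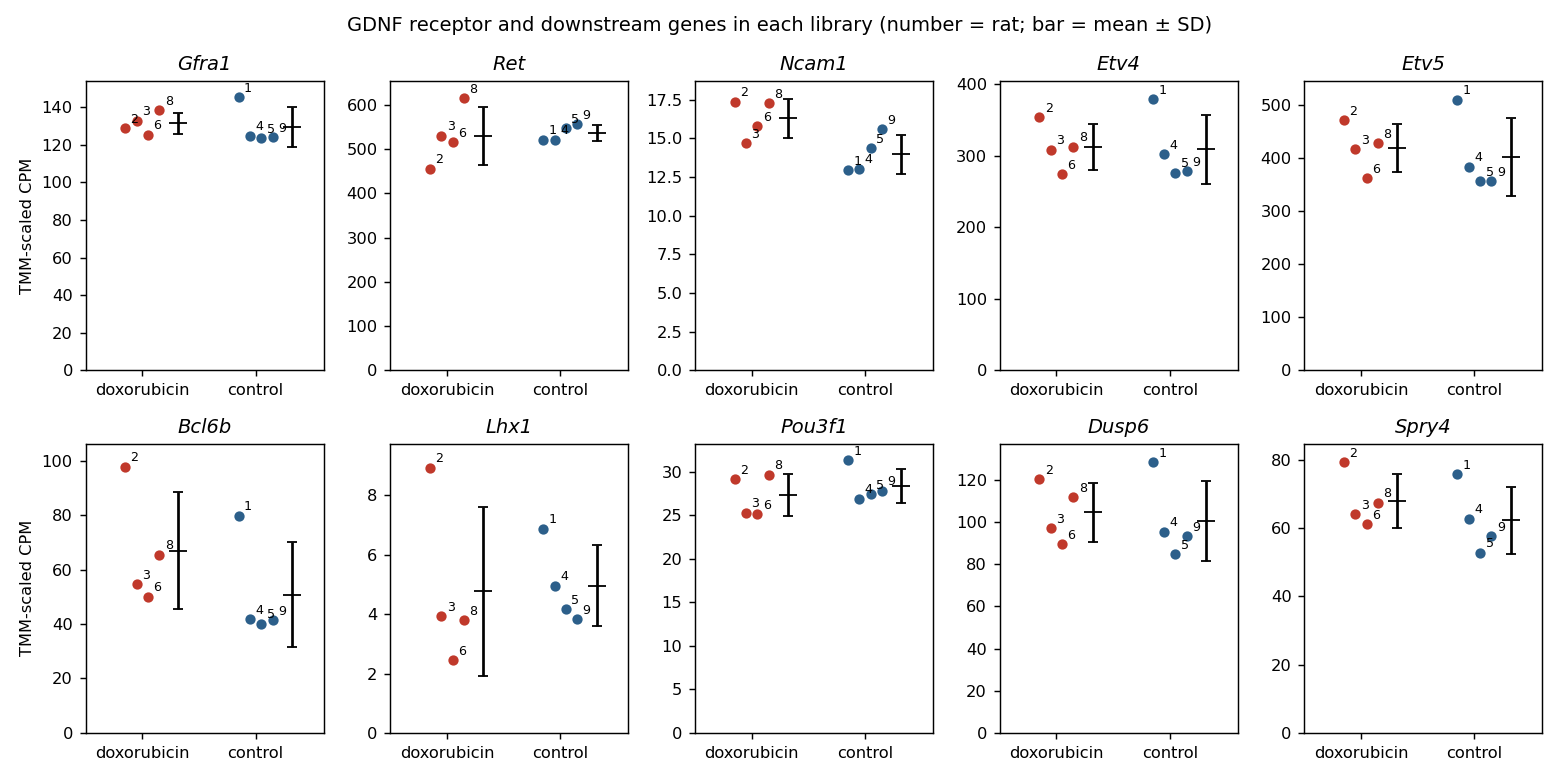
TMM-scaled CPM (vertical axis, from 0) of the 10 genes in each library, doxorubicin on the left and control on the right, with the rat number beside each point and the mean ± SD as a bar (n = 4 each). The groups overlap in every panel, and control rat 1 stands above the other controls for Gfra1, Etv4, Etv5, Bcl6b, Lhx1, Pou3f1, Dusp6 and Spry4.

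Gfra1, the ligand-binding co-receptor (ENSRNOG00000017438.8), stood at 129.0, 132.9, 125.5 and 138.6 CPM in doxorubicin rats 2, 3, 6 and 8, and at 145.4, 125.0, 123.5 and 124.0 CPM in control rats 1, 4, 5 and 9. Control rat 1 was the highest of all 8, and all doxorubicin libraries lay above the 3 other controls. The log2 fold change was 0.02 ± 0.05 (SE), with a 95% interval from -0.10 to 0.14 (edgeR adjusted p = 0.98). On the linear scale that interval runs from 0.936 to 1.10 times the control level, the narrowest of the 10.

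Ret, the signalling kinase of the receptor (ENSRNOG00000014751.8), stood at 455.8, 530.6, 514.9 and 614.8 CPM in doxorubicin rats 2, 3, 6 and 8. Control rats 1, 4, 5 and 9 stood at 521.5, 521.0, 547.5 and 556.3 CPM. Doxorubicin rats held both the lowest and the highest Ret level, with a coefficient of variation of 12.4% against 3.37% in controls, a difference in spread that was not tested. The log2 fold change was -0.02 ± 0.08 (95% interval -0.19 to 0.15, edgeR adjusted p = 0.988).

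Ncam1, the neural cell adhesion molecule that can also bind GDNF together with GFRA1 (ENSRNOG00000031890.7), stood at 17.4, 14.7, 15.8 and 17.3 CPM in doxorubicin rats 2, 3, 6 and 8. In control rats 1, 4, 5 and 9 it stood at 12.9, 13.0, 14.4 and 15.6 CPM. In doxorubicin, 3 of the 4 values exceeded every control, and only rat 3 fell among the controls. Ncam1 had the smallest p of the set, with a log2 fold change of 0.22 ± 0.08 and a 95% interval from 0.04 to 0.40. It did not pass over all genes (unadjusted p = 0.0199, edgeR adjusted p = 0.582, DESeq2 adjusted p = 0.381), and 579 of the genes tested had a smaller p. The two-sided exact permutation p was 0.0571 (n = 4 each).

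**Figure D2:**
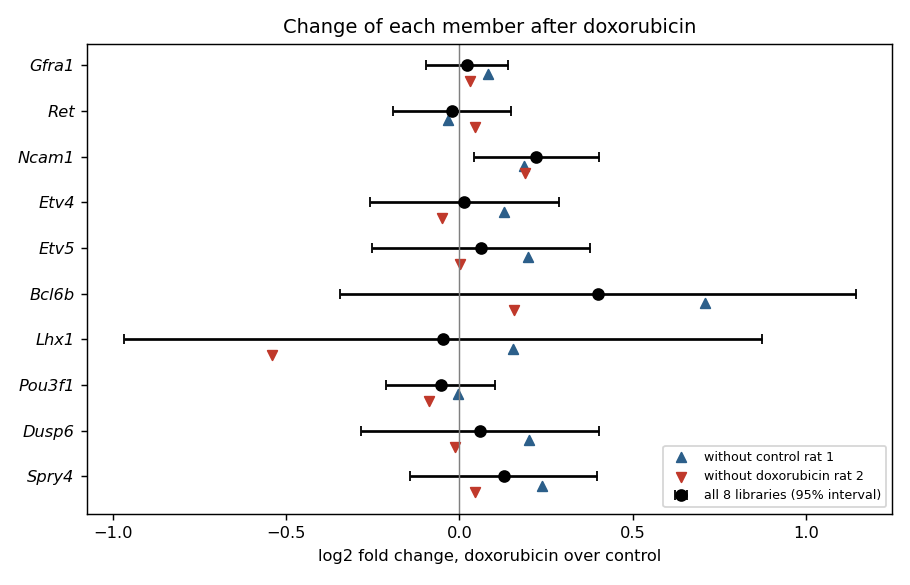
Log2 fold change, doxorubicin over control, of the 10 genes (circles, with 95% intervals from edgeR over all 8 libraries), beside the values without control rat 1 (upward triangles) and without doxorubicin rat 2 (downward triangles). The interval excludes 0 for Ncam1 alone, and without control rat 1 the Bcl6b value is 0.71 in place of 0.40.

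Among the transcription factor genes, Etv5 (ENSRNOG00000001785.6), an ETS factor required to keep the stem cell pool in mice, stood at 470.3, 416.0, 360.9 and 427.6 CPM in doxorubicin rats 2, 3, 6 and 8. Control rats 1, 4, 5 and 9 had 509.4, 383.5, 355.9 and 355.4 CPM. The highest and the lowest level were both in controls, and the log2 fold change was 0.06 ± 0.13 (95% interval -0.25 to 0.38, edgeR adjusted p = 0.979). Its relative Etv4 (ENSRNOG00000020792.7) stood at 353.7, 308.5, 274.0 and 312.9 CPM in doxorubicin rats 2, 3, 6 and 8, and at 379.4, 302.6, 276.4 and 278.7 CPM in control rats 1, 4, 5 and 9. The log2 fold change of Etv4 was 0.01 ± 0.12 (95% interval -0.26 to 0.29, edgeR adjusted p = 0.996). Both genes were highest in control rat 1 and next in doxorubicin rat 2.

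Bcl6b, a zinc finger repressor that sustains cultured stem cells in mice (ENSRNOG00000059956.2), stood at 97.8, 54.5, 50.1 and 65.4 CPM in doxorubicin rats 2, 3, 6 and 8, against 79.7, 41.8, 40.1 and 41.3 CPM in control rats 1, 4, 5 and 9. Every doxorubicin library lay above 3 of the 4 controls, and control rat 1 lay above 3 of the 4 doxorubicin libraries. Its mean was 67.0 ± 21.6 CPM after doxorubicin and 50.7 ± 19.3 CPM in controls (SD, n = 4 each), the largest log2 fold change of the set at 0.40 ± 0.31. The 95% interval ran from -0.34 to 1.14 (edgeR adjusted p = 0.915), so a change from 0.788 to 2.21 times the control level was not excluded. Without control rat 1 the log2 fold change was 0.71 ± 0.26 (unadjusted p = 0.0351, edgeR adjusted p = 0.502), and without doxorubicin rat 2 it was 0.16 (edgeR adjusted p = 0.991).

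Lhx1, a LIM homeobox factor and the least counted of the set (ENSRNOG00000002812.4), stood at 8.93, 3.93, 2.46 and 3.80 CPM in doxorubicin rats 2, 3, 6 and 8. These are 516, 218, 103 and 210 counts. Control rats 1, 4, 5 and 9 had 6.88, 4.96, 4.17 and 3.84 CPM, or 391, 280, 220 and 160 counts. Doxorubicin rat 2 had 2.27 times the level of the next doxorubicin rat. Doxorubicin rats 6 and 8 lay below all controls, and rat 3 lay above control rat 9 alone. The log2 fold change of Lhx1 was -0.05 ± 0.40, with the widest interval of the set (95% interval -0.97 to 0.87, edgeR adjusted p = 0.996). Without doxorubicin rat 2 it was -0.54 (unadjusted p = 0.034, edgeR adjusted p = 0.813).

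Pou3f1, a POU domain factor also called Oct-6 (ENSRNOG00000047686.2), stood at 29.1, 25.3, 25.1 and 29.6 CPM in doxorubicin rats 2, 3, 6 and 8, and at 31.3, 26.9, 27.4 and 27.8 CPM in control rats 1, 4, 5 and 9. Doxorubicin rats 3 and 6 lay below every control and the other 2 lay below control rat 1 alone. The log2 fold change was -0.05 ± 0.07 (95% interval -0.21 to 0.10, edgeR adjusted p = 0.961).

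Both feedback genes overlapped between the groups. Dusp6, a phosphatase that inactivates ERK (ENSRNOG00000023896.5), stood at 120.3, 97.0, 89.6 and 111.9 CPM in doxorubicin rats 2, 3, 6 and 8, and at 128.3, 95.4, 84.9 and 93.2 CPM in control rats 1, 4, 5 and 9. Its log2 fold change was 0.06 ± 0.15 (95% interval -0.28 to 0.40, edgeR adjusted p = 0.98). Spry4, a Sprouty inhibitor of receptor kinase signalling (ENSRNOG00000013851.4), stood at 79.4, 64.2, 61.3 and 67.5 CPM in doxorubicin rats 2, 3, 6 and 8. Control rats 1, 4, 5 and 9 had 75.8, 62.8, 52.8 and 57.7 CPM of Spry4, and the log2 fold change was 0.13 ± 0.12 (95% interval -0.14 to 0.40, edgeR adjusted p = 0.935). Doxorubicin rat 2 and control rat 1 were the 2 highest libraries for both genes.

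Read across the set, doxorubicin rat 2 was the highest treated library and control rat 1 the highest control library in 6 of the 10 genes: Etv4, Etv5, Bcl6b, Lhx1, Dusp6 and Spry4. The same was true of 17.7% of all genes tested, a comparison chosen after the values were seen. Relative to the mean of the other controls, control rat 1 had 1.33 times the Etv4, 1.4 times the Etv5, 1.94 times the Bcl6b, 1.59 times the Lhx1, 1.41 times the Dusp6 and 1.31 times the Spry4 level. Doxorubicin rat 2 had 1.19, 1.17, 1.73, 2.63, 1.21 and 1.23 times the mean of the other doxorubicin rats for these genes in that order. For Ret the same rats stood below the mean of the others of their group, with ratios of 0.824 for doxorubicin rat 2 and 0.963 for control rat 1.

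**Figure D3:**
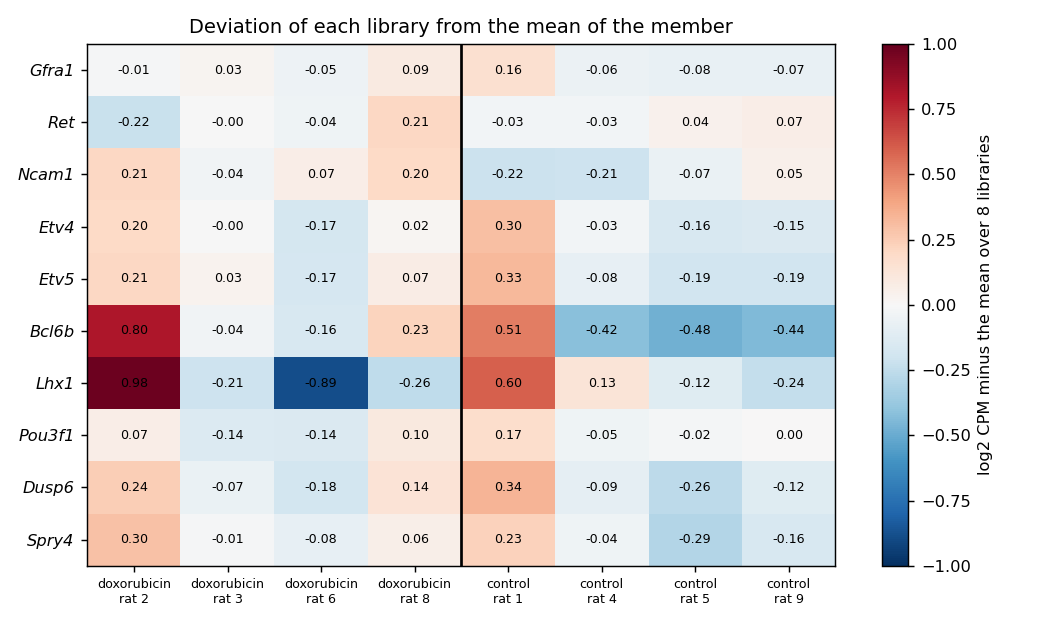
Log2 CPM of each library minus the mean over the 8 libraries (colour and printed value) for the 10 genes in rows and the libraries in columns, doxorubicin left of the line and control right of it. Doxorubicin rat 2 and control rat 1 are above the mean for the Etv4, Etv5, Bcl6b, Lhx1, Dusp6 and Spry4 rows, with 0.80 and 0.51 for Bcl6b, whereas Ret is at -0.22 and -0.03.

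Leaving out control rat 1 bears on the comparison with doxorubicin. Without it edgeR still called 0 of 10 (0.0644% of all genes), but 3 of 10 had an unadjusted p below 0.05 (9.27% of all genes): Etv5, Bcl6b and Spry4, with log2 fold changes of 0.20 ± 0.08, 0.71 ± 0.26 and 0.24 ± 0.09. Without doxorubicin rat 2 in its place, the log2 fold changes of Etv5, Bcl6b and Spry4 were 0.0017, 0.16 and 0.05 (unadjusted p = 0.991, 0.617 and 0.691 in edgeR). With control rat 1 left out, the groups were free of overlap for 2 of 10, Gfra1 and Bcl6b, both higher after doxorubicin. In that setting 9.9% of all genes were free of overlap in either direction. Within rats 5 to 9 alone, with 2 libraries in each group, 6 of 10 did not overlap, where 36% of all genes did not. Of these, Gfra1, Ncam1, Etv5, Bcl6b and Spry4 were higher and Lhx1 was lower after doxorubicin, and edgeR called 0 of 10 (0.546% of all genes). Within rats 1 to 4, Ncam1 alone did not overlap, higher after doxorubicin (1 of 10, beside 30.2% of all genes), and edgeR called 0 of 10 and 0 genes in all.

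Etv4, Etv5, Bcl6b, Dusp6 and Spry4, which are 5 of the 7 downstream genes, varied together between rats. Of the 45 pairs among the 10 genes, 13 had a Pearson r with an adjusted p below 0.05 (exact permutation over 8 libraries, adjusted over the 45 pairs), and 14 passed with Spearman's rho. All 10 pairs among these 5 passed by both measures, a group picked after the values were seen. In these pairs r ran from 0.868 to 0.985 and rho from 0.833 to 0.976. The closest pair was Etv4 and Etv5 (r = 0.985, exact permutation p = 0.000149, adjusted p = 0.00195; rho = 0.905, adjusted p = 0.0228). For Etv5 and Dusp6 r was 0.961 (exact permutation adjusted p = 0.00195) and rho 0.929 (adjusted p = 0.0167), and for Bcl6b and Spry4 r was 0.945 (adjusted p = 0.00195) and rho 0.976 (adjusted p = 0.00893).

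For these 10 pairs the 2 libraries farthest from the median were doxorubicin rat 2 and control rat 1. After both were left out, r in the 10 pairs ran from 0.643 for Etv4 with Bcl6b to 0.949 for Etv4 with Etv5, and 9 of the 10 had an unadjusted exact permutation p below 0.05. Adjusted over the 45 pairs none passed with 6 libraries, where the smallest adjusted p was 0.125. Only 720 pairings exist with 6 libraries, so a single pair could not pass this adjustment by itself, whatever its r. The count of 0 therefore does not show that the relations were lost. On deviations from the group means, r in the 10 pairs ran from 0.935 to 0.994.

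**Figure D4:**
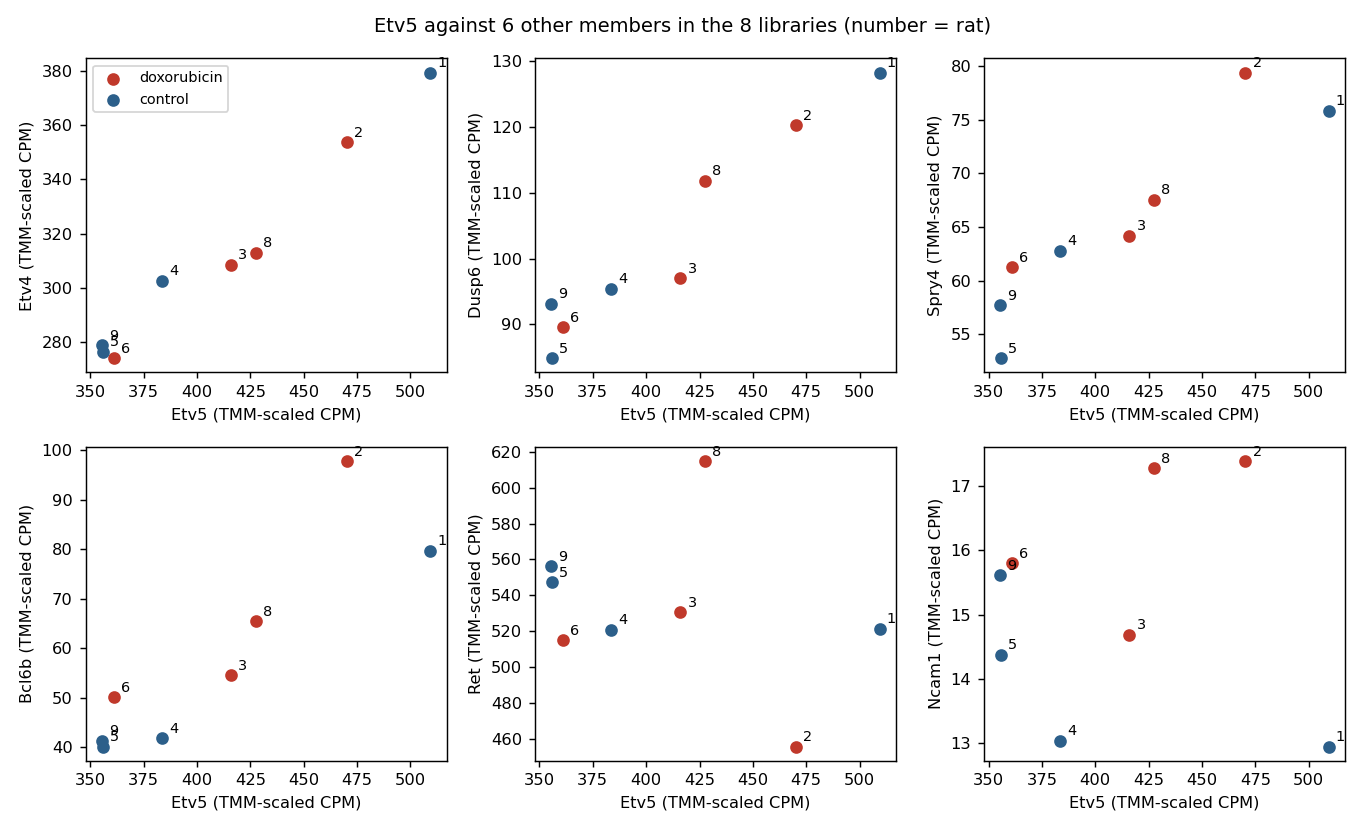
Level of Etv5 (horizontal axis, TMM-scaled CPM) against Etv4, Dusp6, Spry4, Bcl6b, Ret and Ncam1 (vertical axes, TMM-scaled CPM, not starting at 0) in the 4 doxorubicin and 4 control libraries, numbered by rat. Etv4, Dusp6, Spry4 and Bcl6b climb with Etv5 (r from 0.907 to 0.985), while Ret and Ncam1 have r of -0.307 and -0.025.

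The receptor genes differed from each other in this respect. Gfra1 had r = 0.841 with Etv5 (exact permutation adjusted p = 0.0384; rho = 0.881, adjusted p = 0.0326) and r = 0.811 with Dusp6 (adjusted p = 0.048; rho = 0.857, adjusted p = 0.0402). Leaving out control rat 1 and doxorubicin rat 8, these were 0.742 and 0.534. With Bcl6b and Spry4, Gfra1 passed by rho alone, at 0.857 and 0.833 (exact permutation adjusted p = 0.0402 and 0.0494). The r of these 2 pairs was 0.664 and 0.67 (adjusted p = 0.138 for both). Etv4 and Lhx1 passed by r alone, at 0.83 (exact permutation adjusted p = 0.048; rho = 0.619, adjusted p = 0.287), and Lhx1 passed in no other pair. Pou3f1 passed in none of its 9 pairs, where the smallest adjusted p by r was 0.0643, with Dusp6 (r = 0.798, exact permutation). Of the 17 pairs that include Ret or Ncam1, none passed, with r between -0.557 and 0.345 and the smallest adjusted p at 0.225. Ret and Gfra1, the 2 chains of the receptor, had r = 0.19 (exact permutation adjusted p = 0.782; rho = -0.0476, adjusted p = 0.999).

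Sequencing depth moved with the same order of rats. Doxorubicin rat 2 and control rat 1 were the 2 deepest libraries, and rho with total counts was 0.929 for Etv5, 0.905 for Spry4 and 0.881 for Etv4 (exact permutation, adjusted over 20 relations of the 10 genes with depth and mitochondrial share, adjusted p = 0.0446, 0.0456 and 0.0483). The corresponding Pearson r were 0.745, 0.609 and 0.752 and did not pass (adjusted p = 0.231, 0.249 and 0.231). Without doxorubicin rat 6 and control rat 9, the shallowest libraries, r was 0.872, 0.979 and 0.906. For Dusp6 and Bcl6b rho with total counts was 0.857 and 0.833 (exact permutation adjusted p = 0.0536 and 0.0615). Of 9258 genes with a mean of at least 10 CPM, 2.15% had a rho with depth of 0.9 or more, and 2 of the 9 genes of the set at that level did. A rho of 0.8 or more was found for 6.62% of these genes and for 5 of the 9: Etv4, Etv5, Bcl6b, Dusp6 and Spry4, which also varied together. CPM values are scaled to library totals, and the part of depth in the shared variation was not tested. Mitochondrial share was highest in doxorubicin rat 2 at 9.23% and stood at 8.63% in control rat 1, against a range of 7.37% to 8.67% in the other 6 libraries, and its part was likewise not tested.

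Genes outside the set of 10 also followed Etv5 closely. Among 9257 genes with a mean of at least 10 CPM, 3.08% had r of 0.9 or more with Etv5, as did 4 of the 9 other genes of the set. Of these 9, Lhx1 (r = 0.749) had a mean below 10 CPM. Etv4 ranked 5 of 9257, Dusp6 42, Spry4 167 and Bcl6b 254. The 3 genes most like Etv5 over the 8 libraries were Dpysl5 (r = 0.989), a neuronal cytoskeleton protein, the kinase gene Sgk3 (r = 0.988) and Plcg2 (r = 0.988), a phospholipase C. The 3 most like Gfra1 were Col6a6 (r = 0.98), a collagen VI chain, Usp7 (r = 0.964), a deubiquitinase that acts on MDM2 and p53, and Ccdc6 (r = 0.961).

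The remaining genes of the pathway were read from 6 lists of 116 genes, of which 102 were tested. Over all genes edgeR called 0 of these 102, and DESeq2 called 0. At an unadjusted p below 0.05, 2 were higher and 6 lower after doxorubicin, which is 8 of 102, beside 4.19% of all genes higher and 2.56% lower. Groups did not overlap for 1 higher gene, Il17rd, and 4 lower genes, Hras, Akt1, Fgf2 and Erg, beside 2.77% and 1.95% of all genes.

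In the list of other GDNF family ligands and co-receptors, 5 of 6 tested genes were positive, their median log2 fold change was 0.22, and 0 were called. Only 3 of the 6 had a mean of at least 10 CPM, and Artn had 7 to 24 and Gfra4 had 28 to 55 counts per library. Gfra2, the co-receptor of neurturin, averaged 119.0 ± 25.2 CPM after doxorubicin and 102.7 ± 24.9 CPM in controls (edgeR adjusted p = 0.945). It too was highest in doxorubicin rat 2 and control rat 1, at 153 and 138 CPM, and had r = 0.95 with Etv5. The ligand genes Nrtn and Pspn averaged 16.1 and 9.96 CPM after doxorubicin, and 15.98 and 10.2 CPM in controls. For Gfra3 the log2 fold change was 0.23 ± 0.13 and for Gfra4 0.28 ± 0.22 (adjusted p = 0.815 and 0.902 in edgeR). Gfral was at 0 counts in all 8 libraries.

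Among the adaptors and kinases that carry the signal from RET, 14 of 30 were positive and 16 negative, with a median of -0.0038 and 0 called. Map2k2, which encodes the ERK kinase MEK2, averaged 190.6 CPM after doxorubicin and 186.3 CPM in controls. Mapk3, the ERK1 gene, averaged 25.7 ± 1.37 CPM after doxorubicin and 29.0 ± 1.51 CPM in controls, a log2 fold change of -0.17 ± 0.06 (unadjusted p = 0.0118, edgeR adjusted p = 0.479). Hras averaged 44.5 ± 1.14 CPM after doxorubicin and 47.7 ± 0.572 CPM in controls, with every doxorubicin library below every control library (edgeR adjusted p = 0.635).

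Of the 20 other output and feedback genes of ERK tested, 16 were positive and 4 negative, with a median of 0.06 and 0 called. Il17rd, which encodes the feedback inhibitor SEF, had the smallest p of this list. It averaged 70.2 ± 19.4 CPM after doxorubicin and 44.5 ± 6.83 CPM in controls, a log2 fold change of 0.66 ± 0.20 (unadjusted p = 0.0132, edgeR adjusted p = 0.494, DESeq2 adjusted p = 0.203). Its groups did not overlap, at 98.7, 58.6, 57.1 and 66.4 CPM in doxorubicin rats 2, 3, 6 and 8 and 54.0, 37.7, 43.5 and 42.6 CPM in control rats 1, 4, 5 and 9. For Dusp5, a nuclear ERK phosphatase, it was 0.33 ± 0.17 (adjusted p = 0.8 in edgeR). Spred2, Spred1 and Egr1 averaged 107.8, 77.3 and 69.0 CPM after doxorubicin and 102.5, 74.7 and 63.5 CPM in controls. Of the 15 genes of this list with at least 10 CPM, 8 had r of 0.8 or more with Etv5, where 8.31% of all genes did, among them Spred2 (r = 0.95), the receptor kinase gene Epha2 (r = 0.923) and Dusp4 (r = 0.903).

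**Figure D5:**
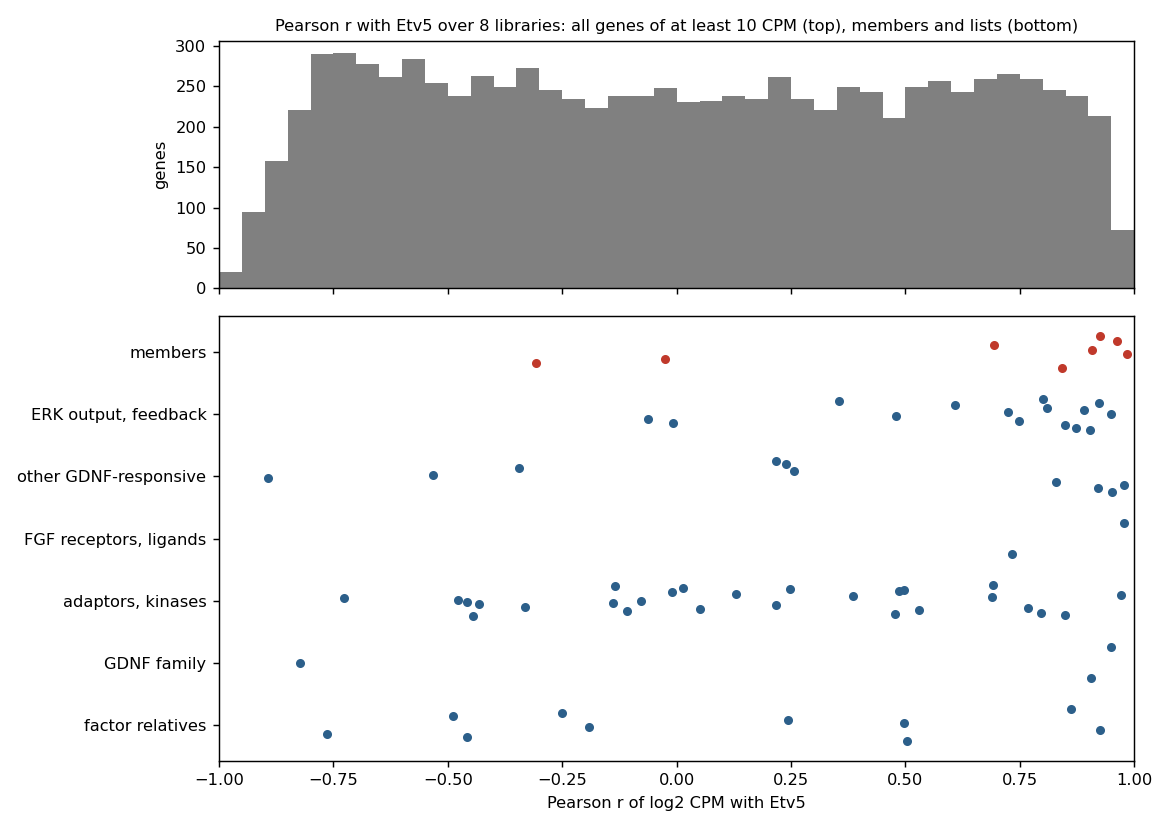
Pearson r of log2 CPM with Etv5 over the 8 libraries. A histogram holds 9257 genes (top), and points show genes of the set and of the 6 pathway lists (bottom). Both panels hold only genes with a mean of at least 10 CPM, so Lhx1 is not drawn. Etv4, Dusp6, Spry4 and Bcl6b lie above 0.9, 8 of 15 ERK output genes lie at or above 0.8, and Ret and Ncam1 lie below 0.

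The list of other genes reported to follow GDNF in rodent spermatogonia had 6 positive and 8 negative members, with a median of -0.03 and 0 called. The zinc finger factor genes Sall4 and Zbtb16 and the Myc family gene Mycn averaged 183.1, 92.5 and 63.3 CPM after doxorubicin and 186.5, 98.0 and 67.8 CPM in controls. Ccnd2, which encodes cyclin D2, had the smallest p of the list, at a log2 fold change of -0.22 ± 0.10 (adjusted p = 0.765 in edgeR), and Mycn the next, with -0.10 ± 0.06 (edgeR adjusted p = 0.842). Of 10 genes at 10 CPM or more, Tec, a cytoplasmic kinase, the T-box factor gene Tbxt and Egr3 had r of 0.977, 0.951 and 0.921 with Etv5, and the median of the 10 was 0.249. At the other end Ccnd2 had r = -0.894 with Etv5, and Nanos2, an RNA-binding factor of spermatogonial stem cells, had r = -0.532.

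FGF receptors feed the same ERK pathway in spermatogonia. Of 10 FGF receptor and ligand genes, 3 were positive and 7 negative, with a median of -0.15 and 0 called. Most of the list was low: only 2 of the 10, Fgfr3 and Fgfr1, had a mean of at least 10 CPM. Both were positive (log2 fold changes 0.01 and 0.10), while Fgfr4 had 3 to 19 and Fgf10 had 6 to 17 counts per library. Fgfr3 averaged 330.4 ± 38.9 CPM after doxorubicin and 327.4 ± 74.9 CPM in controls, was highest in control rat 1 at 439 CPM, and had r = 0.978 with Etv5. Fgfr1 averaged 38.6 ± 3.35 CPM after doxorubicin and 35.9 ± 2.59 CPM in controls. Fgf2 was low, at 0.641 ± 0.0707 CPM after doxorubicin and 1.08 ± 0.198 CPM in controls, with no overlap and a log2 fold change of -0.74 ± 0.20 (unadjusted p = 0.00266, edgeR adjusted p = 0.265). For Fgfrl1 it was -0.22 ± 0.09 (adjusted p = 0.671 in edgeR).

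Relatives of the 5 transcription factors were divided, with 11 positive and 12 negative of 23, a median of -0.01 and 0 called. Elk4, Ets1 and Elk1, all of the ETS family, averaged 94.4, 79.6 and 83.8 CPM after doxorubicin and 91.1, 85.3 and 80.4 CPM in controls. The groups did not overlap for Erg, whose log2 fold change was -0.12 ± 0.05 (edgeR adjusted p = 0.731), and Pou3f2 had one of -0.37 ± 0.19 (adjusted p = 0.784).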

How the data were processed

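PolyA RNA of 8 rats was sequenced, from samples with a RIN above 8 per the labels' protocols. Among the tools in the submitters' processing notes are kallisto 0.48.0, featureCounts and the build rn6, without the role of each. The authors' deposited table holds estimated counts per gene, not normalized. Between 32.5% and 33.6% of values per library were not whole (tolerance 1e-06), so values were rounded. The sources used here give neither the strand setting nor the handling of shared reads. No transcript lengths were used, so levels are not compared between genes.

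Groups came from the sample titles. Tests ran in R 4.3.3 with edgeR 4.0.16 (filterByExpr, TMM, glmQLFit with robust = TRUE, glmQLFTest, no covariate), and Benjamini-Hochberg adjustment ran over 16976 genes with a threshold of 0.05. The common biological coefficient of variation was 8.82%. Standard errors are the log2 fold change divided by the root of F. DESeq2 1.42.0 and limma-voom (limma 3.58.1) were alternatives, beside other scaling, filters, a non-robust fit, a term for rats 1 to 4 against rats 5 to 9, each of these sets alone, and each library left out. Relations between genes use log2 CPM with a prior count of 2 and all 40320 pairings. Every pair of libraries differed beyond sampling noise (chi-square per degree of freedom at least 6.22). In the smallest library 1 CPM is 41.3 counts.

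The genes and lists were chosen with earlier results of these data known. In each list the text names the 3 genes with the highest mean CPM, the 2 with the smallest p and any called, and for Etv5 and Gfra1 the 3 genes with the highest r. Some genes that this rule names are not reported here. Epha2, Dusp4, Tec, Tbxt, Egr3 and Nanos2 are named for their relation to Etv5. Gdnf, Gfral, Artn, Fgfr4 and Fgf10 are named for their low counts. Akt1, Slc4a1, Hbb, Hba-a1, Alas2, Pecam1, Egfl7, Pdgfra, Col1a1 and Myh11 are named for their values. All of these were chosen after the values were seen. The procedure was tested on simulated counts.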

Additional observations from a re-analysis of the deposited data

Results flagged for a closer look

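Of 20 groups of 4 libraries (10 genes in 2 groups), 2 had 1 library far from the other 3, where chance gives about 1 in 20. Both were control rat 1. Gfra1 stood at 145.4 CPM there, against 123.5 to 125.0 CPM in the other controls. Bcl6b stood at 79.7 CPM there, against 40.1 to 41.8 CPM in the other controls. Control rat 1 was the deepest of the control libraries, with 57700876 counts against 41253789 to 55768719 in the other controls, and the part of depth was not tested.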

How the results depend on the processing

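The count of GDNF pathway genes called, 0 of 10, held in all 19 alternatives, as did 0 called in the 6 other lists except within rats 5 to 9, where 2 were called, Il17rd and Epha2 (log2 fold changes 0.52 and 0.45, edgeR adjusted p = 0.00233 and 0.032), beside 0.546% of all genes. Over all genes 19 were called. The count was 173 with DESeq2, 53 without robust fitting, 61 with the set of rat numbers as a term, 0 in rats 1 to 4, 92 in rats 5 to 9, 60 at adjusted p below 0.1, and 1 to 62 with 1 library left out. Genes of the set without overlap numbered 0 with all libraries and 0 to 2 with 1 left out. Without control rat 1 they were Gfra1 and Bcl6b, both higher after doxorubicin, beside 9.9% of all genes in either direction. The count was 1 without doxorubicin rat 3 and 1 without control rat 9, settings for which the share of all genes was not computed. There were 1 in rats 1 to 4 (30.2% of all genes) and 6 in rats 5 to 9 (36% of all genes). Pairs of genes with an adjusted p below 0.05 numbered 13, 20 on deviations from the group means, and 0 with 2 libraries left out. In that last setting only 720 pairings exist, and a single pair could not pass by itself.

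Of 190 log2 fold changes of the 10 genes under alternatives, 18 had the other sign, none past the threshold in either fit, and the cause was not tested. Within rats 1 to 4 these were Gfra1 (-0.039), Etv4 (-0.036), Etv5 (-0.0038), Dusp6 (-0.035) and Lhx1 (0.13), and within rats 5 to 9 Ret (0.036). The 190 include the adjusted p threshold of 0.1 and the non-robust fit, which gave the same log2 fold changes as the main fit and so no change of sign. With 1 library left out, the ranges were -0.0043 to 0.083 for Gfra1, -0.10 to 0.045 for Ret, -0.051 to 0.13 for Etv4, -0.54 to 0.17 for Lhx1 and -0.014 to 0.20 for Dusp6. No paired analysis was possible because the groups share no rat number.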
